A study of Mus musculus with 12 samples.

Results

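Livers of Keap1-KD mice were compared with livers of wild-type mice, across all genes measured. The comparison took 6 of the 12 arrays of the study, 3 Keap1-KD mice against 3 wild-type mice, and each gene was tested on those 6 arrays alone. All mice were untreated 8-week-old males of the C57BL/6 background. Keap1-KD mice carry a Keap1 allele made for deletion by Cre, and this allele lowers Keap1 in every tissue without any Cre. Keap1-HKO mice carry that allele together with AlbCre+, which expresses Cre in hepatocytes alone, and Nrf2-null mice lack Nrf2. These further genotypes, also with 3 mice each, are used below only where a gene of the comparison is set beside them. RNA of whole liver was hybridized to Affymetrix whole-genome mouse arrays, and the values are log2 intensities. Of 9622 probe sets in the table, 8554 named a single gene, and each of the 5856 genes was represented by its brightest probe set over all arrays.

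Keap1 is an adaptor protein that holds the transcription factor Nrf2 (gene Nfe2l2) in the cytosol and hands it to a ubiquitin ligase, so that Nrf2 is degraded. When Keap1 is scarce, more Nrf2 escapes degradation and acts in the nucleus, together with a small Maf partner, on genes that hold an antioxidant response element. In liver these targets are known to include enzymes that make glutathione and NADPH, enzymes that reduce or conjugate reactive chemicals, and pumps that carry conjugates out of hepatocytes.

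The 6 arrays were alike in scale, with medians between 8.30 and 8.35. Correlations over genes were 0.970 to 0.993 within wild-type mice, 0.985 to 0.992 within Keap1-KD mice and 0.959 to 0.989 between them. The 10 hepatocyte markers measured, albumin and transthyretin among them, had a median of 15.55 to 15.65 in wild-type and 15.58 to 15.64 in Keap1-KD mice. Wild-type replicate 2 stood apart in muscle transcripts. The median of 11 skeletal muscle genes was 10.39 on Wild-type replicate 2 and 2.31 to 2.58 on the other 5 arrays of the comparison. Keap1-HKO replicates 2 and 3 stood apart in muscle and pancreas transcripts. The median of those muscle genes was 2.93, 10.94 and 9.50 on replicates 1, 2 and 3, and that of 9 pancreas genes was under 3 on replicate 1, 14.25 on replicate 2 and 11.17 on replicate 3, against 2.29 to 2.54 on the 6 arrays of wild-type and Keap1-KD mice. Counts that lead a paragraph are therefore also given without Wild-type replicate 2 where they move by over 1.5 times.

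Keap1 mRNA was lower in all 3 Keap1-KD mice. Its log2 intensity was 7.97, 7.80 and 7.81 in the wild-type mice and 5.92, 5.59 and 5.59 in the Keap1-KD mice, so that the groups lay far apart. The difference between the group means was −2.16 on the log2 scale (standard error 0.12, adjusted p = 0.00344 by limma). The Keap1-KD mean lies below an intensity of 100 (6.64 on the log2 scale), the level a probe set had to exceed in some genotype to be kept in the table, so the fold is given as a bound against that level. Keap1 mRNA was at least 2.33-fold lower. Levels in whole liver cannot tell fewer cells of a type apart from less RNA per cell. Nfe2l2 mRNA, by contrast, overlapped between the groups, with 8.81, 8.94 and 8.93 in wild-type and 8.65, 9.03 and 8.81 in Keap1-KD mice (log2 fold change −0.06, standard error 0.11, adjusted p = 0.897). Of the 12 measured genes of the Keap1-Nrf2 pathway itself, Keap1 alone had an unadjusted p under 0.05. Without Wild-type replicate 2, Nfe2l1, a relative of Nrf2, also had one (difference 0.24, against 0.14 with that array). Sqstm1, an autophagy receptor that binds Keap1, differed by 0.27 (standard error 0.12, unadjusted p = 0.0712), with the 3 Keap1-KD values above the wild-type values.

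Few genes passed the test across all genes. At an adjusted p under 0.05, limma called 7 of 5856 genes (0.12%). Of these, 4 were higher in Keap1-KD mice (0.0683%), namely Cbr3, Nqo1, Abcc4 and Cyp2g1. The 3 lower genes (0.0512%) were Keap1, Zbtb44 and Tmem25. The counts rested on all 6 arrays. Without Keap1-KD replicate 1 there were 2 higher and 1 lower, without Keap1-KD replicate 2 or 3 there were 0 and 0, and without any 1 wild-type array 0 and 1. Before adjustment 510 genes (8.71%) had a p under 0.05, 247 of them higher (4.22%) and 263 lower (4.49%). The 3 Keap1-KD arrays lay above all 3 wild-type arrays for 411 genes (7.02%) and below them for 481 (8.21%). The median log2 fold change over all genes was −0.01.

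**Figure D1:**
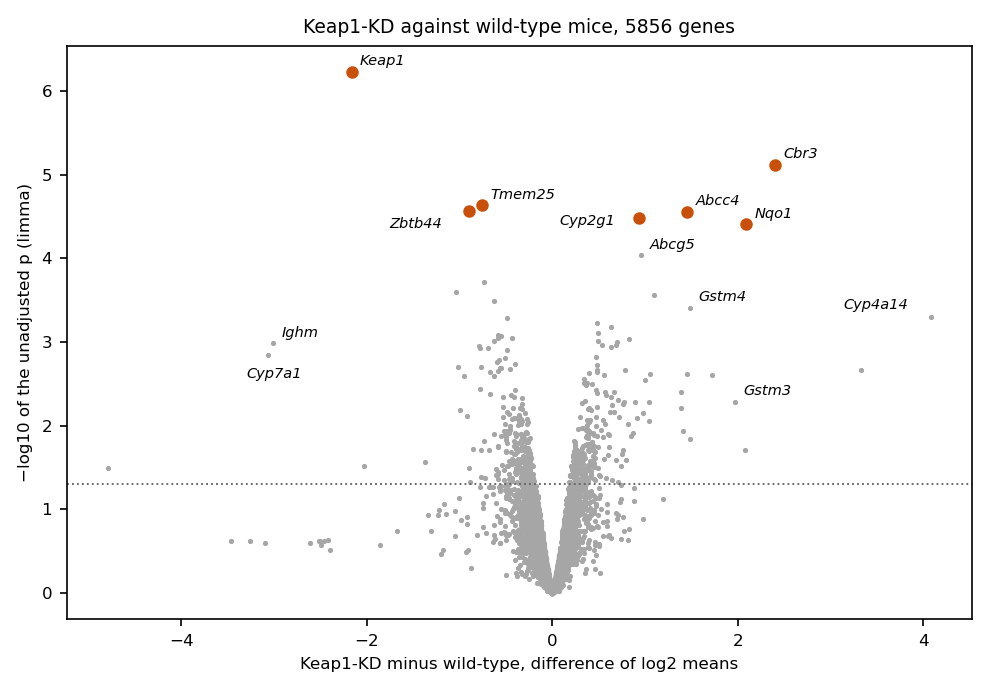
Difference of log2 means (Keap1-KD minus wild-type, x axis) against −log10 of the unadjusted limma p (y axis) for 5856 genes, with 3 mice per genotype. The 7 genes with an adjusted p under 0.05 are large orange points, and the dotted line marks an unadjusted p of 0.05. Genes with larger differences, such as Cyp4a14, Cyp7a1 and Ighm, lie lower and have larger standard errors.

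Of the 4 genes that rose, 2 encode reductases. Cbr3, a carbonyl reductase that reduces ketones and quinones with NADPH, had values of 3.20, 3.65 and 3.64 in wild-type mice and 6.26, 5.76 and 5.68 in Keap1-KD mice (log2 fold change 2.40, standard error 0.19, adjusted p = 0.0222). Nqo1, the NAD(P)H quinone oxidoreductase that turns quinones into hydroquinones, had 4.77, 4.50 and 4.87 against 7.29, 6.51 and 6.61 (log2 fold change 2.09, standard error 0.22, adjusted p = 0.0330). For both genes the Keap1-KD values lay well above the wild-type values, and Keap1-KD replicate 1 was the highest of the 3. All Cbr3 values of both groups were still below 6.64, so no fold in intensity is given for Cbr3, and its difference is one between values under that level. For Nqo1 the Keap1-KD mean intensity was 115 and the wild-type mean lay under 100, so the level was at least 1.15-fold higher.

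Abcc4 and Cyp2g1 completed the genes that rose. Abcc4 (Mrp4), a pump in the sinusoidal membrane that exports conjugates and bile acids into blood, had 5.27, 5.04 and 5.45 in wild-type mice and 6.90, 6.72 and 6.51 in Keap1-KD mice. The difference came to 1.45 on the log2 scale (standard error 0.14, adjusted p = 0.0324), and by intensity Abcc4 was at least 1.05-fold higher. Cyp2g1, a cytochrome P450 best known from olfactory mucosa, had 4.53, 4.46 and 4.53 against 5.46, 5.56 and 5.29 (log2 fold change 0.93, standard error 0.10, adjusted p = 0.0325). Neither gene overlapped between the groups, and Cyp2g1, like Cbr3, was below 6.64 in every mouse of both groups. Of the 5856 genes, 307 lay below an intensity of 100 in both groups, and 424 did so in wild-type mice.

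Keap1-HKO mice were then compared with Keap1-KD mice on the same 5856 genes. That comparison called 21 genes (0.359%), and it shares its Keap1-KD arrays with the one against wild-type mice, so the values are only set side by side. Cbr3 reached 14.30, 13.54 and 13.68 in Keap1-HKO mice. With the Keap1-KD mean under an intensity of 100, it was at least 151-fold higher (adjusted p = 0.000185). Cbr3 exceeded 100 in Keap1-HKO mice alone, and a probe set had to exceed that level in some genotype to be kept. That filter thus set in advance that Cbr3 was higher there, and its adjusted p is no separate support. Abcc4 reached 11.88 to 12.23, a difference of 5.33 (adjusted p = 0.000185). Nqo1 reached 10.42, 9.56 and 9.99, a difference of 3.19 (adjusted p = 0.0185, or 0.121 without Keap1-HKO replicate 3). For each of these 3 genes all Keap1-HKO values lay above all Keap1-KD values. Whether the difference between the Keap1 genotypes differed from that between Keap1-KD and wild-type mice was not tested. Cyp2g1, at 8.16, 6.73 and 7.99 in Keap1-HKO mice, did not pass (adjusted p = 0.161), and it too exceeded 100 in Keap1-HKO mice alone. In Nrf2-null mice Nqo1 was 3.15, 3.86 and 3.88 and Cyp2g1 was 3.79, 3.76 and 4.04, each below the wild-type values. Cbr3 (3.35, 3.47 and 2.88) and Abcc4 (5.37, 4.96 and 5.19) overlapped the wild-type values there. All of these values lie under an intensity of 100 in both genotypes.

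**Figure D2:**
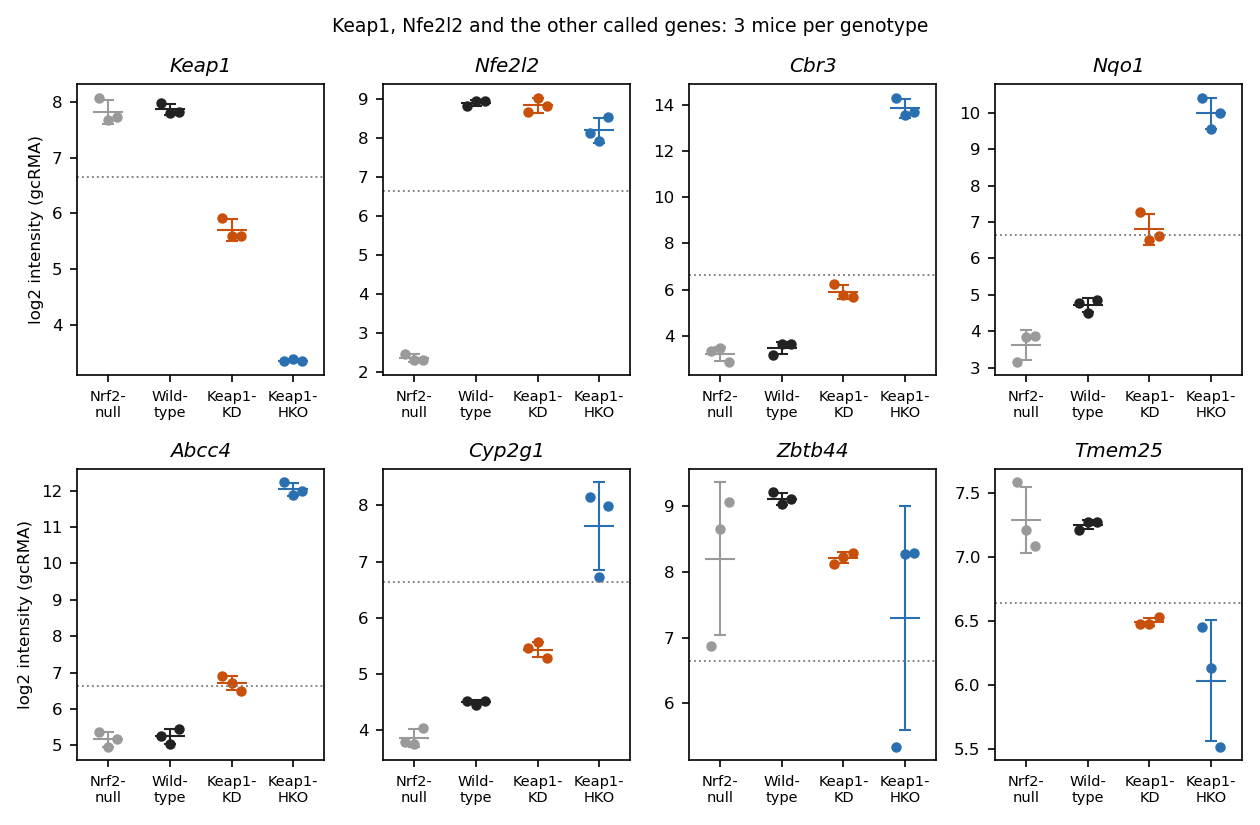
Log2 intensity (y axis) of Nfe2l2 and the 7 called genes in the 3 mice of each of 4 genotypes (x axis). Points are mice, horizontal marks are means, bars are SD and the dotted line is an intensity of 100 (6.64). Cbr3 and Cyp2g1 lie under the line in wild-type and Keap1-KD mice, and Abcc4 and Nqo1 lie about it in Keap1-KD mice.

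The windows around the transcription starts of the genes that rose were searched for the core of the antioxidant response element, TGACNNNGC, on both strands. Each window runs from 250 bases before the start to 50 after it (RefSeq, GRCm38.p6), and Cyp2g1 has no entry. Shown is the first window of each of the 3 other genes that rose, 1 with the core and 2 without. Also shown are those of Srxn1 and Ugdh, Nrf2 targets described below that were picked because they hold it. Capitals mark the core, which reads as its reverse complement where it lies on the opposite strand. Abcc4 lies at chr14:118706170-118706469 (minus strand), Cbr3 at chr16:93682969-93683268 (plus strand), Nqo1 at chr8:107403156-107403455 (minus strand), Srxn1 at chr2:152105274-152105573 (plus strand) and Ugdh at chr5:65435793-65436092 (minus strand).
Abcc4: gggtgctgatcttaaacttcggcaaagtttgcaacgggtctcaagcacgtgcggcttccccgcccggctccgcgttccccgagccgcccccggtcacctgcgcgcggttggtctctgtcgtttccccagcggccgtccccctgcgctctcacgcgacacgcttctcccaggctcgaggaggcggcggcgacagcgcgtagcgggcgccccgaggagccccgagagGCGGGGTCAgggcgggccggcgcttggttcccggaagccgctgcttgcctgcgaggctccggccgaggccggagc
Cbr3: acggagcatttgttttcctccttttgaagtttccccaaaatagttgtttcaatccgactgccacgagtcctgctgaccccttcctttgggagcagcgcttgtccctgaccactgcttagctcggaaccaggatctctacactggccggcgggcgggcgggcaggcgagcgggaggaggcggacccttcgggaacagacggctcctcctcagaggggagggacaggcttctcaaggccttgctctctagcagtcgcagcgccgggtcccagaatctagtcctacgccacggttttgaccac
Nqo1: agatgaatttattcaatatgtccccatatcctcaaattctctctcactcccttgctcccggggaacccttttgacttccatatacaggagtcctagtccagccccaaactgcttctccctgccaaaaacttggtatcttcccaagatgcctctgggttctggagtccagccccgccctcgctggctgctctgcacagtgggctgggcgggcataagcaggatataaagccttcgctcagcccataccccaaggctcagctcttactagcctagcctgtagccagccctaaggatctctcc
Srxn1: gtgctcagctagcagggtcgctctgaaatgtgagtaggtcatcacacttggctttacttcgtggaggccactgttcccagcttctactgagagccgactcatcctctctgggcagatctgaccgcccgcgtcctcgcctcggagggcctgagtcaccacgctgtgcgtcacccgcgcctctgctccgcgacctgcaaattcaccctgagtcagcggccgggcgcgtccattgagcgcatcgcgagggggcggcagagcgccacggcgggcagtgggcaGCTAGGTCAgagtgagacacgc
Ugdh: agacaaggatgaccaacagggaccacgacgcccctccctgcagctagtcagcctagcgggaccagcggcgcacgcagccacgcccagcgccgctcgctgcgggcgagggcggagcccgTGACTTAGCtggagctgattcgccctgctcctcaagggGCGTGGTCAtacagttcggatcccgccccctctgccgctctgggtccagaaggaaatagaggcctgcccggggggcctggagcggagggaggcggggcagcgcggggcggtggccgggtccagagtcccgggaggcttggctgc
In Abcc4 the core begins 25 bases before the start, and Ugdh holds 2 cores beginning 132 and 94 bases before it. Abcc4 has a second window, not shown, at chr14:118676882-118677181, with a core beginning 23 bases before its own start. In Srxn1 the core begins 28 bases past the start. The core stood in a window of 844 of the 4822 tested genes with an entry (17.5%). It stood in 36 of 199 genes that stood higher before adjustment, with a p under 0.05 (18.09%), and in 38 of 210 lower genes (18.1%). Of the 30 genes of the drug-processing and antioxidant lists that stood higher at an unadjusted p under 0.05 without being called, 24 had a window and 4 of these held the core. These shares were close to each other and to that of all tested genes, and a window without the core says only that these letters are not in it.

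Of the 3 genes that fell, Keap1 itself was one, and the other two, Zbtb44 and Tmem25, lie on chromosome 9 as Keap1 does. Zbtb44, a zinc finger protein, had 9.21, 9.03 and 9.10 in wild-type mice and 8.12, 8.23 and 8.29 in Keap1-KD mice (log2 fold change −0.90, standard error 0.09, adjusted p = 0.0324). Tmem25, a membrane protein of the immunoglobulin superfamily, had 7.22, 7.27 and 7.28 against 6.48, 6.47 and 6.53 (log2 fold change −0.76, standard error 0.07, adjusted p = 0.0324). Neither gene overlapped between the groups, and Tmem25 was at least 1.53-fold lower, its Keap1-KD mean being under an intensity of 100. The 2 probe sets of Zbtb44 disagreed, since the dimmer one differed by 0.49 in the other direction (unadjusted p = 0.0355). In Keap1-HKO mice, which carry the same allele, Tmem25 was 6.45, 6.13 and 5.52, also below all wild-type values. Zbtb44 was 5.34, 8.28 and 8.29 there, likewise below them, and it also spread widely in Nrf2-null mice (6.87, 8.65 and 9.07).

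Zbtb44 lies 9.79 Mb and Tmem25 23.6 Mb from Keap1, by the starts in the RefSeq table. A distance of 25 Mb, chosen after these positions were seen, holds 65 other tested genes, of which 3 were higher and 8 lower at an unadjusted p under 0.05 (16.9%). Without Zbtb44 and Tmem25, which prompted the distance, it was 3 and 6 of 63 (14.3%). The share was 9.26% for the 216 genes of chromosome 9 farther away and 8.30% for the 4540 genes of other chromosomes. At an unadjusted p under 0.005 it was 9.23% nearby, or 6.35% (4 of 63) without those genes, 1.85% farther away and 1.15% on other chromosomes. The nearby genes of that kind, besides Zbtb44 and Tmem25, were Dpy19l1 (−0.56), the sterol desaturase Sc5d (−0.59), Thyn1 (0.69) and Dcps (0.39). They differed in both directions, and none passed after adjustment. Keap1-KD mice were backcrossed to C57BL/6, and the sequence around their Keap1 allele was not analysed here. The part of that region in these values was not tested.

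**Figure D3:**
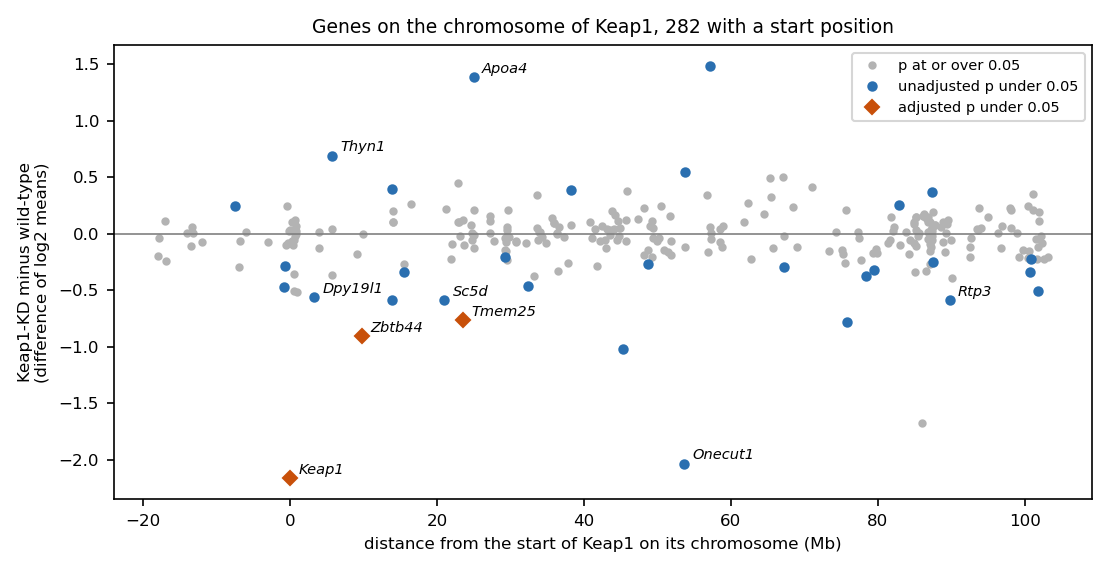
Difference of log2 means (Keap1-KD minus wild-type, y axis) for 282 genes of chromosome 9 against the distance of their start from that of Keap1 in Mb (x axis). Grey points have an unadjusted p of 0.05 or more, blue points one under 0.05, and orange diamonds an adjusted p under 0.05. The 3 diamonds, Keap1, Zbtb44 and Tmem25, all lie below 0 and within 25 Mb of Keap1.

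Abcg5 alone came close to the threshold. The genes of this paragraph were picked by lowest p among uncalled genes whose groups did not overlap. Their lack of overlap was thus set by that choice. Abcg5, which pairs with Abcg8 to pump sterols into bile, had 8.38, 8.19 and 8.33 in wild-type and 9.30, 9.42 and 9.07 in Keap1-KD mice (log2 fold change 0.96, standard error 0.12, adjusted p = 0.0667). Gstm4, a glutathione transferase, had 8.88, 7.95 and 8.53 against 10.06, 9.86 and 9.90 (1.49, standard error 0.23, adjusted p = 0.176). Neither gene overlapped between the groups. Others with all 3 Keap1-KD values above the wild-type values were Pir, an iron-binding nuclear protein (0.63, adjusted p = 0.209), the ubiquinone synthesis gene Coq7 (0.48, adjusted p = 0.209), the potassium channel Kcnk5 (at least 1.20-fold higher, adjusted p = 0.147), the collagen gene Col4a1 (0.50, adjusted p = 0.209) and the mitochondrial carrier Slc25a47 (0.83, adjusted p = 0.209). In the opposite direction stood Hes6, a transcriptional repressor with 10.96, 10.75 and 10.77 against 10.26, 10.13 and 10.21 (−0.63, adjusted p = 0.158). Lbr, the lamin B receptor and a sterol reductase, differed by −0.48 (adjusted p = 0.204), Pcolce, an enhancer of collagen processing, by −0.55, Rtp3 by −0.59, Arid4b by −0.44 and Antxr2 by −0.63 (each of the last 4 with an adjusted p of 0.209). Ccdc25 was at least 1.10-fold lower (adjusted p = 0.147). The Keap1-KD mean of Arid4b lay under an intensity of 100 as well. Arid4b exceeded that level in wild-type mice alone (mean intensity 100.1), and on log2 means Kcnk5 did so in Keap1-KD mice alone (6.89). The direction of both was thus partly set by the filter on the table, and their adjusted p is no separate support.

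Genes of glutathione supply were mostly above the wild-type level, though none passed after adjustment. Over all genes, 4.22% were higher and 4.49% lower at an unadjusted p under 0.05, the shares to set beside each list from here on. Of 13 measured genes of glutathione supply, 5 were higher and 1 lower at that p. Their median log2 fold change was 0.20 against −0.01 over all genes. Without Wild-type replicate 2 the counts were 2 and 0, with a median of 0.18. Gclc, the catalytic subunit of the rate-limiting enzyme of glutathione synthesis, had 12.11, 11.60 and 11.99 in wild-type and 12.61, 12.76 and 12.31 in Keap1-KD mice (0.66, standard error 0.17, unadjusted p = 0.00693). All 3 Keap1-KD values were above the wild-type values. Its partner Gclm overlapped between the groups (0.02, standard error 0.10). Gsr, which reduces oxidized glutathione, differed by 0.45 on the probe set used, and by 0.20 on its other one (unadjusted p = 0.184). Gss, the second enzyme of the pathway, differed by 0.26, the oxoprolinase Oplah by 0.40 and the glutaredoxin Glrx by 0.26. The other probe set of Gss differed by 0.52, and that of Glrx by 0.09 (unadjusted p = 0.637 by limma). Chac1, which breaks glutathione down, differed by −0.46 with overlapping groups. The glutathione peroxidases Gpx1 (−0.03), Gpx2 (0.21) and Gpx4 (0.20) each overlapped between the groups.

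Among 16 genes of the thioredoxin system and its antioxidant partners, 2 had an unadjusted p under 0.05, both higher, and the median log2 fold change was 0.05, or −0.000585 without Wild-type replicate 2. Srxn1, the sulfiredoxin that repairs oxidized peroxiredoxins, had 7.97, 7.97 and 8.23 in wild-type mice and 8.95, 8.61 and 8.71 in Keap1-KD mice (0.70, standard error 0.13, unadjusted p = 0.00099, adjusted p = 0.209). Txnrd1, the cytosolic thioredoxin reductase, had 9.18, 9.13 and 9.11 against 9.60, 9.62 and 9.35 (0.39, standard error 0.10, adjusted p = 0.382). Neither gene overlapped between the groups. Sod1 (0.19), Txn1 (0.15) and Cat (0.09) had an unadjusted p of 0.0865, 0.116 and 0.411. Of 11 genes that supply NADPH, 1 had an unadjusted p under 0.05. This was Tkt, the transketolase of the pentose phosphate pathway (0.43, standard error 0.13). Pgd, the second NADPH-forming enzyme of that pathway, had 10.31, 9.91 and 10.20 against 11.14, 10.33 and 10.38 (0.47, standard error 0.23, unadjusted p = 0.0857). Me1 differed by 0.33 (unadjusted p = 0.42), or by −0.13 without Wild-type replicate 2.

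Quinone, carbonyl and epoxide enzymes held 2 of the called genes, Cbr3 and Nqo1. Of the 13 measured, 6 were higher and 1 lower at an unadjusted p under 0.05, or 5 and 0 without Wild-type replicate 2, with median log2 fold changes of 0.22 and 0.17. Cbr1, a further carbonyl reductase, had 10.15, 9.13 and 9.80 in wild-type and 10.73, 10.58 and 10.37 in Keap1-KD mice (0.87, standard error 0.25, adjusted p = 0.455). Ephx1, the microsomal epoxide hydrolase, had 13.04, 11.98 and 12.46 against 13.33, 13.50 and 13.21 (0.85, standard error 0.26, adjusted p = 0.456). Aox1, an aldehyde oxidase, had 10.77, 10.29 and 10.57 against 11.16, 11.53 and 11.05 (0.70, standard error 0.17, adjusted p = 0.357). None of the 3 overlapped between the groups, and in each the lowest wild-type value was that of replicate 2, the array with muscle transcripts. Without it the differences were 0.59, 0.60 and 0.58. Cbr4 differed by 0.24 and Cyb5r3, a cytochrome b5 reductase, by −0.25.

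Glutathione transferases, which join glutathione to electrophiles, showed some of the larger differences in the comparison. Of 20 measured, 5 were higher and 0 lower at an unadjusted p under 0.05, with a median log2 fold change of 0.33, or 0.14 without Wild-type replicate 2. By limma 0 of the 20 passed after adjustment. Gstm3 had 11.13, 9.71 and 10.26 in wild-type and 13.20, 12.14 and 11.65 in Keap1-KD mice (1.97, standard error 0.48, adjusted p = 0.364). Gstm1 had 13.89, 12.72 and 13.32 against 15.12, 14.75 and 14.44 (1.46, standard error 0.31, adjusted p = 0.254). Gsta2 had 12.86, 11.41 and 12.50 against 14.50, 13.32 and 13.40 (1.48, standard error 0.45, adjusted p = 0.464). In all 3 genes the Keap1-KD values lay above the wild-type values, and again the lowest value was that of Wild-type replicate 2. Gsta4 differed by 0.71 with overlapping groups (unadjusted p = 0.0469). The 4 probe sets of Gstm1 differed by 1.09 to 1.60. Genes of the Gstm cluster are close in sequence, and how far their probe sets take up signal of one another was not tested.

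Glucuronidation attaches a sugar acid to drugs and bilirubin. Of 12 measured genes of this process, 5 were higher and 0 lower at an unadjusted p under 0.05, against 4.22% and 4.49% of all genes. Their median was 0.17, and 3 were higher without Wild-type replicate 2. By limma 0 passed after adjustment. Ugdh, which makes the sugar donor UDP-glucuronic acid, had 11.61, 11.55 and 11.53 in wild-type and 12.15, 12.31 and 11.90 in Keap1-KD mice (0.56, standard error 0.12, adjusted p = 0.254). Ugt2b35, a transferase, had 12.68, 12.65 and 12.74 against 13.09, 13.38 and 13.21 (0.54, standard error 0.10, adjusted p = 0.209). The groups did not overlap for either gene. Slc35d1, which carries the donor into the endoplasmic reticulum, differed by 0.43 and Ugt2b36 by 0.24. Of 6 sulfotransferases, 0 were higher and 1 was lower at an unadjusted p under 0.05 (Sult1d1, −0.58), or 0 and 0 without Wild-type replicate 2. Among 9 carboxylesterases, ester hydrolases of drugs and lipids, Ces1g was the 1 gene of that kind (2 higher without Wild-type replicate 2), with 11.77, 11.39 and 11.89 in wild-type and 12.67, 12.26 and 12.48 in Keap1-KD mice (0.78, standard error 0.16, adjusted p = 0.254).

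Before adjustment other efflux transporters stood above the wild-type level beside Abcc4. Of 12 measured, 5 were higher and 0 lower at an unadjusted p under 0.05, against 4.22% and 4.49% of all genes. Their median was 0.14. Without Wild-type replicate 2 the counts were also 5 and 0, and the median was 0.09. The Keap1-KD values of all 5 lay above the wild-type values, as they did for 7.02% of all genes. Abcc3 (Mrp3), a pump for glucuronides in the sinusoidal membrane, had 11.20, 10.10 and 10.75 in wild-type and 11.68, 11.78 and 11.72 in Keap1-KD mice (1.04, standard error 0.26, adjusted p = 0.364). Abcg2, the breast cancer resistance protein of the canalicular membrane, had 11.27, 11.19 and 10.99 against 11.59, 11.60 and 11.73 (0.49, standard error 0.10, adjusted p = 0.254). Abcg8, the partner of Abcg5, differed by 0.45 (unadjusted p = 0.0314). Abcc2 (Mrp2), a canalicular pump for conjugates, overlapped between the groups (0.10, standard error 0.11), as did Abcb11, the bile salt export pump (unadjusted p = 0.999). Of 12 uptake transporters, 0 were higher and 1 was lower at an unadjusted p under 0.05, or 1 and 1 without Wild-type replicate 2. Of 13 nuclear receptors and partners that sense xenobiotics, 2 were higher and 0 lower, or 1 and 1 without Wild-type replicate 2. Nr1i3, the constitutive androstane receptor, had 7.78, 7.66 and 7.69 in wild-type and 8.20, 8.11 and 8.31 in Keap1-KD mice (0.50, standard error 0.09, adjusted p = 0.209), and Nr1i2, the pregnane X receptor, differed by 0.30.

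**Figure D4:**
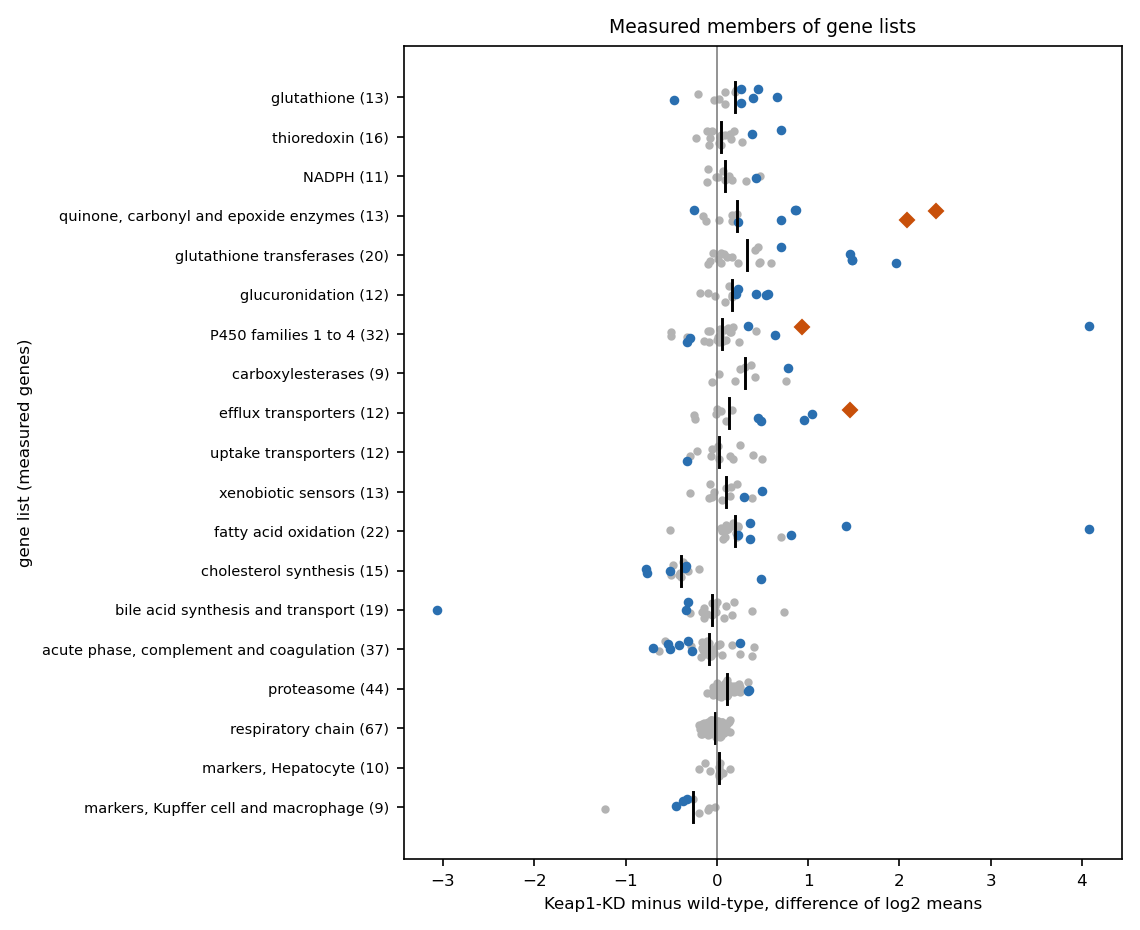
Difference of log2 means (Keap1-KD minus wild-type, x axis) for the measured members of 19 gene lists (y axis, number measured in brackets). Grey points have an unadjusted p of 0.05 or more, blue points one under 0.05, orange diamonds an adjusted p under 0.05, and black bars are list medians. Glutathione transferases have a median of 0.33 and cholesterol synthesis one of −0.39, while the respiratory chain lies about 0.

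Cytochromes P450 of families 1 to 4 held 1 called gene, Cyp2g1, among 32. At an unadjusted p under 0.05, 4 were higher and 2 lower, or 2 and 1 without Wild-type replicate 2, with a median of 0.06. The largest difference was that of Cyp4a14, a fatty acid hydroxylase and a known target of the receptor PPARα. It had 6.25, 3.55 and 4.59 in wild-type mice and 8.46, 8.73 and 9.45 in Keap1-KD mice (4.08, standard error 0.65, adjusted p = 0.204), and its intensity was at least 4.92-fold higher. The groups did not overlap, and the wild-type values themselves were far apart. Cyp4a14 was 4.17, 3.16 and 5.94 in Keap1-HKO mice, all below the Keap1-KD values (adjusted p = 0.116). It was 12.71, 9.38 and 12.68 in Nrf2-null mice, above all Keap1-KD values in replicates 1 and 3. The other P450 genes with an unadjusted p under 0.05 were Cyp2c37 (0.64), Cyp3a13 (0.34), Cyp4f14 (−0.33) and Cyp4v3 (−0.30).

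Genes of fatty acid oxidation, a list that holds Cyp4a14 too, lay mostly above the wild-type level without passing. Of 22 measured, 6 were higher and 0 lower at an unadjusted p under 0.05, against 4.22% and 4.49% of all genes. The counts were 3 and 0 without Wild-type replicate 2, and the medians were 0.20 with it and 0.15 without. Acot1, a cytosolic acyl-CoA thioesterase, had 7.99, 6.37 and 7.88 in wild-type and 8.74, 8.89 and 8.85 in Keap1-KD mice (1.41, standard error 0.41, adjusted p = 0.455; 0.89 without Wild-type replicate 2). Acot2, its mitochondrial relative, differed by 0.81, below an intensity of 100 in both groups. Ehhadh, the peroxisomal bifunctional enzyme, differed by 0.37, Slc25a20, the acylcarnitine carrier, by 0.37 and Acadvl, the very long chain acyl-CoA dehydrogenase, by 0.23. For each of these genes the 3 Keap1-KD values were above the wild-type values. Ppara itself differed by 0.23 (unadjusted p = 0.142), Cpt1a by 0.17 (unadjusted p = 0.528) and Pdk4 by −0.52 (unadjusted p = 0.185), all with overlapping groups. Apoa4, an apolipoprotein of triglyceride-rich particles, had 9.76, 9.13 and 9.77 against 11.53, 10.33 and 10.96 (1.39, standard error 0.32, adjusted p = 0.328). It was 9.68, 9.46 and 9.31 in Keap1-HKO mice, below all Keap1-KD values and among the wild-type values.

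Genes of cholesterol synthesis lay mostly below the wild-type level. Of 15 measured, 1 was higher and 5 lower at an unadjusted p under 0.05, against 4.22% and 4.49% of all genes. The counts were 0 and 3 without Wild-type replicate 2, and the median was −0.39 (−0.42 without it). By limma 0 passed after adjustment. Msmo1, a sterol demethylase, had 11.89, 12.18 and 12.37 in wild-type and 11.61, 11.28 and 11.25 in Keap1-KD mice (−0.77, standard error 0.16, adjusted p = 0.254). Nsdhl, which works with it, had 9.13, 9.36 and 9.58 against 9.0, 8.67 and 8.87 (−0.51, standard error 0.14, adjusted p = 0.429). Neither overlapped between the groups. Hsd17b7, a later reductase of the pathway, differed by −0.35, Insig1 by −0.33 and Fdps, the farnesyl diphosphate synthase, by −0.77 with overlapping groups. Insig2, which with Insig1 holds the sterol sensor in the endoplasmic reticulum, was the 1 gene of that list above the wild-type level (0.49). The remaining 9 genes, Hmgcs1 (−0.48) and Sqle (−0.50) among them, differed downward without an unadjusted p under 0.05.

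Cyp7a1, the rate-limiting enzyme of bile acid synthesis, showed the largest difference among genes of bile acid handling. It had 9.03, 8.51 and 10.03 in wild-type mice and 6.02, 7.23 and 5.11 in Keap1-KD mice (−3.07, standard error 0.59, adjusted p = 0.241). The groups did not overlap, and with the Keap1-KD mean under an intensity of 100 the level was at least 6.44-fold lower. Its other probe set differed by −1.92 (unadjusted p = 0.0015). In Keap1-HKO mice Cyp7a1 was 5.11, 6.97 and 6.23, overlapping the Keap1-KD values, with both means under an intensity of 100. Of 19 genes of bile acid synthesis and transport, 0 were higher and 3 lower at an unadjusted p under 0.05, with a median of −0.06. The others of the 3 were Cyp8b1, the enzyme that makes cholic acid (−0.34), and Fgfr4, the receptor through which the gut hormone FGF15 lowers Cyp7a1 (−0.31). Nr0b2, the repressor SHP, differed by 0.38 (unadjusted p = 0.251), and Slc10a1, the bile acid uptake carrier, by −0.06 (unadjusted p = 0.525).

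**Figure D5:**
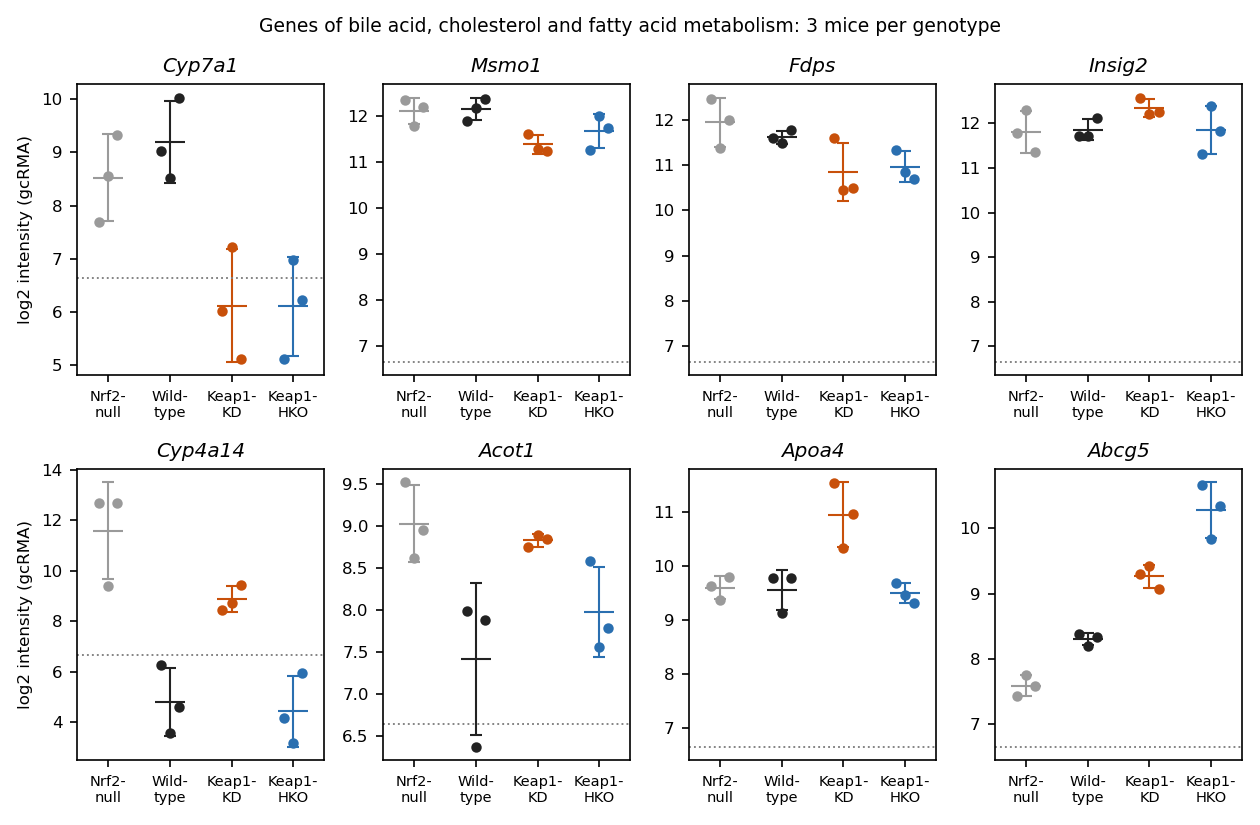
Log2 intensity (y axis) of 8 genes of bile acid, cholesterol and fatty acid metabolism in the 3 mice of each of 4 genotypes (x axis). Points are mice, horizontal marks are means, bars are SD and the dotted line is an intensity of 100 (6.64). Cyp7a1 lies below wild-type in both Keap1 genotypes, Cyp4a14 and Apoa4 are above wild-type in Keap1-KD but not in Keap1-HKO mice, and the Abcg5 values of Keap1-HKO mice lie above those of Keap1-KD mice.

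Genes of secreted plasma proteins lay more often below than above the wild-type level. Of 37 genes of the acute phase, complement and coagulation, 1 was higher and 6 lower at an unadjusted p under 0.05, with a median of −0.09. The Keap1-KD values of 12 of the 37 lay below all wild-type values and those of 1 above. Over all genes, 8.21% lay below and 7.02% above, and 4.49% were lower and 4.22% higher at an unadjusted p under 0.05. C6, a component of the membrane attack complex, had 10.79, 10.98 and 10.74 in wild-type and 10.21, 10.30 and 9.91 in Keap1-KD mice (−0.70, standard error 0.13, adjusted p = 0.209). C9, which forms the pore, had 14.45, 14.82 and 14.54 against 13.89, 14.20 and 14.14 (−0.53, standard error 0.13, adjusted p = 0.382). The groups were separate for both genes. C8a (−0.31) and C8b (−0.42), further parts of the same complex, and the clotting factor F11 (−0.52) differed in the same direction. Lbp, which binds bacterial lipopolysaccharide, differed by 0.25. The acute phase genes Saa1 (−0.63, unadjusted p = 0.153), Crp (−0.16, unadjusted p = 0.108) and Hp (−0.04, unadjusted p = 0.598) had a p over 0.05.

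All 9 measured markers of Kupffer cells and macrophages had a negative difference, and none passed after adjustment. Of these 9 markers, 0 were higher and 3 lower at an unadjusted p under 0.05, with a median of −0.27. The 3 were Vsig4, a complement receptor (−0.45), Csf1r, the growth factor receptor of macrophages (−0.37), and the complement gene C1qc (−0.33). Without Wild-type replicate 2 the counts were 0 and 0. The summed intensity of the 9 ran from 6004 to 7632 in wild-type and from 5461 to 5845 in Keap1-KD mice, so that the sums did not overlap. Their median log2 intensity per array did overlap, with 8.92 to 9.70 in wild-type and 8.67 to 9.03 in Keap1-KD mice. Whether the groups separated thus depended on the measure. Clec4f, which marks Kupffer cells in particular, differed by −0.08 (unadjusted p = 0.581) and Adgre1 (F4/80) by −0.02 (unadjusted p = 0.893). Cd163, a scavenger receptor of macrophages, had 7.75, 7.89 and 7.65 against 7.12, 6.92 and 7.05 (−0.73, standard error 0.10, adjusted p = 0.124), and Ly86 differed by −0.59 (adjusted p = 0.209). Ighm, the heavy chain of IgM and a gene of B cells, had 7.54, 7.93 and 6.66 against 5.53, 3.62 and 3.93 (−3.01, standard error 0.55, adjusted p = 0.209), at least 1.77-fold lower by intensity. Its values did not overlap between the groups. The erythroid gene Alas2, which makes heme in red cell precursors, had 9.71, 9.53 and 9.62 against 9.23, 9.05 and 9.10 (−0.49, unadjusted p = 0.0013), without overlap. Of the cholangiocyte markers only the keratins Krt8 and Krt18, which hepatocytes also make, were measured. Their summed intensity was 7368 to 8923 in wild-type and 9274 to 11827 in Keap1-KD mice, without overlap (Krt8 0.33, unadjusted p = 0.0285, Krt18 0.32, unadjusted p = 0.0586). The part of either cell type in the results was not tested. The median of 6 stellate cell and fibroblast markers was −0.66, or −0.32 without Wild-type replicate 2, with 0 genes at an unadjusted p under 0.05 by limma. Their summed intensity overlapped between the groups (2832 to 5779 in wild-type and 1506 to 3044 in Keap1-KD mice). Their median log2 intensity per array did not, with 8.57 to 9.09 in wild-type and 7.85 to 8.45 in Keap1-KD mice. Whether cell numbers differed was not tested.

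Stress genes outside the Nrf2 pathway gave mixed values. Of 9 genes of the integrated stress response, 1 was higher and 3 lower at an unadjusted p under 0.05. Over all genes these shares were 4.22% and 4.49%. Trib3, a pseudokinase induced by ATF4, had 5.43, 5.22 and 6.05 in wild-type and 6.51, 7.67 and 7.71 in Keap1-KD mice (1.73, standard error 0.37, adjusted p = 0.254), at least 1.68-fold higher by intensity. Its values did not overlap, whereas Atf4 itself differed by −0.52 and Ddit4 by −0.31. In iron and heme metabolism 3 of 19 genes were higher and 1 lower, or 1 and 0 without Wild-type replicate 2. Slc40a1, the iron exporter ferroportin, had 11.10, 11.12 and 11.52 against 11.90, 11.83 and 11.72 (0.57, standard error 0.13, adjusted p = 0.328). Blvrb, a biliverdin reductase, differed by 0.76 with overlapping groups, and Tfrc, the transferrin receptor, by −0.89. Among 44 proteasome genes 2 were higher (4.545%), near the 4.22% of all genes, and 0 lower. Without Wild-type replicate 2 there were 0 and 0. The medians were 0.11 with that array and 0.06 without it. Of 67 respiratory chain genes, 11 clock genes, 19 genes of the growth hormone axis and 17 interferon genes, 0 had an unadjusted p under 0.05 by limma, and without Wild-type replicate 2 there were 2 clock genes, both higher.

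Between Keap1-HKO and Keap1-KD mice more genes were called. Of the 21 genes called there, 14 were higher (0.239%) and 7 were lower (0.12%) in Keap1-HKO mice. Before adjustment 452 genes (7.72%) had a p under 0.05, 253 higher (4.32%) and 199 lower (3.4%). Some of the genes of the Keap1-KD comparison passed here. Srxn1 was 2.35 higher than in Keap1-KD mice (adjusted p = 0.00451), Cbr1 2.77 higher (adjusted p = 0.00492), Gstm4 1.76 higher (adjusted p = 0.0268) and Txnrd1 1.35 higher (adjusted p = 0.0422). Gpx2, a glutathione peroxidase of the gut, was at 4.22, 4.22 and 4.26 in wild-type and 4.89, 4.17 and 4.27 in Keap1-KD mice. It reached 8.94, 9.0 and 8.52 in Keap1-HKO mice, at least 4.56-fold higher (adjusted p = 0.00231). Abcc12 (Mrp9) had 2.56, 2.44 and 2.54 in wild-type and 2.56, 2.72 and 2.39 in Keap1-KD mice. It was at 6.63 or above on each Keap1-HKO array, at least 1.28-fold higher (adjusted p = 0.00196). Both genes are below an intensity of 100 in wild-type and in Keap1-KD mice. Any difference between those groups is one between values under that level. Such a gene is in the table only because another genotype exceeded 100. Its rise from Keap1-KD to Keap1-HKO mice was therefore partly set by that filter, and the adjusted p is no separate support. Without Keap1-HKO replicate 2 or 3, the arrays with pancreas and muscle transcripts, 12 and 2 or 10 and 4 genes were called higher and lower. Cbr3, Abcc4, Srxn1, Cbr1, Gpx2 and Abcc12 passed in both cases, Gstm4 (adjusted p = 0.101 and 0.130) and Txnrd1 (0.161 and 0.227) in neither. The part of those transcripts in these results was not tested. Without Keap1-HKO replicate 1, 97 genes were called higher and 73 lower. Without Keap1-KD replicate 2 there were 6 and 0, and without Keap1-KD replicate 3 there were 6 and 1.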

How the data were processed

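Liver RNA of 12 mice was hybridized to 1 array each. The authors processed the scanner files with the gcRMA method in R and deposited log2 values of those probe sets that exceeded 100 un-logged in 1 or more genotypes, so the values carry no read depth and the number of arrays limits the precision. Genes were tested with limma 3.58.1 (lmFit and eBayes, R 4.3.3) on the 6 arrays, with Benjamini-Hochberg adjustment over 5856 genes. The test had 4 residual and 2.69 prior degrees of freedom, and the code was tested on simulated data. Tables were made with pandas 2.3.3 and numpy 2.4.6. Of the probe sets, 371 carried several symbols and 697 none, and 1869 genes had several probe sets. Where 1 group lay under an intensity of 100 and a fold is printed, it is a bound of the mean un-logged intensity against 100. Log2 differences of such genes (Abcg8, Arid4b, Chac1, Nr1i2 and Pdk4 among them) are fitted values and no bounds.

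Genotypes came from the labels, and each array was 1 mouse. Mice were called biological replicates in the methods. Named were Keap1 and Nfe2l2, the called genes, the genes of lowest p with non-overlapping groups up to 12 a direction, up to 4 members of each list by p, and the lists of the pathway, glutathione, thioredoxin, NADPH and quinone enzymes. Outside this rule, and named after their values were seen, were Abcb11, Abcc12, Abcc2, Abcg8, Adgre1, C8a, Clec4f, Cpt1a, Crp, Cyp2c37, Cyp3a13, Dcps, Dpy19l1, Ehhadh, Fdps, Gsta4, Hmgcs1, Hp, Ighm, Insig1, Lbp, Nr0b2, Pdk4, Ppara, Saa1, Sc5d, Slc10a1, Slc25a20, Sqle and Thyn1. The members and lists were chosen with earlier results of these data known. Alternatives covered the arrays fitted, the intensity filter, normalization, choice of probe set, variance model, array weights and the methods' Duncan's multiple range test.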

Additional observations from a re-analysis of the deposited data

How the results depend on the processing

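By limma 4 genes were called higher and 3 lower in Keap1-KD mice. Leaving out 1 array left 0 to 2 higher and 0 to 1 lower. Without Keap1-KD replicate 2 or 3 there were 0 and 0, without Keap1-KD replicate 1 there were 2 and 1, and without any 1 wild-type array there were 0 and 1. One fit of all 12 arrays gave 3 and 1, a second quantile normalization 0 and 1, and testing every probe set, an alternative chosen after seeing the data, 1 and 1. Genes above an intensity of 200, and values raised to at least 100, each gave 0 higher and 2 lower. Array quality weights gave 20 and 24, and Duncan's multiple range test, without adjustment over genes, 81 and 51 on log2 and 58 and 64 on un-logged values. At an unadjusted p under 0.05 limma gave 247 and 263. Keap1 was called in 19 of 21 alternatives (adjusted p 0.000179 to 0.0562). Cbr3 was called in 11 of 19, Nqo1 in 11 of 20, Abcc4 in 10 of 20, Tmem25 in 10 of 20, Zbtb44 in 9 of 21 and Cyp2g1 in 8 of 19. Several alternatives, such as the fold limit or centring on the median, changed the test of these genes little or not at all. With 1 array left out, the lowest adjusted p by limma was 0.0802 for Abcc4, Tmem25 and Zbtb44 and 0.102 for Cyp2g1. The causes were not tested.

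For Keap1-HKO against Keap1-KD mice, 14 higher and 7 lower became 46 and 38 in the fit of all 12 arrays and 738 and 771 with array quality weights. Leaving out 1 array gave 6 to 97 higher and 0 to 73 lower.

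The replicate block gave 0 higher and 1 lower gene in Keap1-KD mice, namely Keap1. It gave 11 higher and 0 lower in Keap1-HKO against Keap1-KD mice. Deviations of same-numbered Keap1-KD and wild-type arrays had correlations of 0.201, 0.180 and −0.0556, and 4 of 6 arrays correlated best with their own number. The labels do not say what the numbers mark. The mice were not treated as paired, and a batch shared by number was not tested.

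Some genes with small or uncertain differences changed sign, Me1 (0.33) among them. Leaving out 1 array moved Abcb11 between −0.10 and 0.0546, Abcc12 between −0.0419 and 0.13, Adgre1 between −0.0917 and 0.0988, Clec4f between −0.19 and 0.0263, Cpt1a between −0.0434 and 0.38, Gclm between −0.0451 and 0.0841, Gpx2 between −0.0109 and 0.35, Me1 between −0.13 and 0.64 and Nfe2l2 between −0.16 and 0.0247. Array quality weights gave −0.0918 for Abcb11, −0.0678 for Abcc12, 0.0295 for Adgre1 and 0.0355 for Slc10a1, a second quantile normalization gave 0.0149 for Adgre1, and un-logged values gave −0.00211 for Abcb11.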

Other observations

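Probe sets with several gene symbols or none were outside the comparison of genes. Only those of lowest unadjusted p were listed, none with a p over 0.00981 by limma. Those below were taken from that list. A probe set shared by Cyp4a31 and Cyp4a10, fatty acid hydroxylases of the family of Cyp4a14, had 10.50, 7.75 and 10.83 in wild-type and 12.68, 12.54 and 13.57 in Keap1-KD mice (log2 fold change 3.23, adjusted p = 0.404 by limma over all probe sets). One shared by Cyp2a5 and Cyp2a4, P450 enzymes that oxidize coumarin and steroids, had 13.01, 12.37 and 12.58 against 14.37, 14.01 and 13.23 (1.21, adjusted p = 0.417), and it was 16.13, 16.01 and 16.15 in Keap1-HKO mice. The groups did not overlap for either. A probe set of the Ugt1a family differed by 0.28 (adjusted p = 0.417). The 4 listed probe sets of hemoglobin genes differed by −0.37 to −0.64 (unadjusted p 0.00243 to 0.0041 by limma). All their Keap1-KD values lay below the wild-type values, as for the erythroid gene Alas2 (−0.49). Having been picked by p, these probe sets say nothing of hemoglobin probe sets outside the list.

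The largest difference among the listed probe sets was in one with no gene symbol. That probe set had 9.0, 9.39 and 7.77 in wild-type and 4.50, 3.96 and 4.45 in Keap1-KD mice (−4.41, standard error 0.41, adjusted p = 0.0552). It was 3.87, 7.2 and 5.26 in Keap1-HKO mice.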
